A study of Mus musculus with 9 samples.

Results

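4-Octyl-itaconate (4-OI) is a membrane-permeable ester of itaconate, the metabolite that the enzyme encoded by Acod1 makes from an intermediate of the TCA cycle. The comparison set mouse osteoclast cultures labelled Acod1-deficient that had received 4-OI (KO_4OI, n = 3 libraries) against untreated cultures with the same genotype label (KO_CTR, n = 3). Every gene that passed the filter on low counts was a member, which gave 14264 of 54532 gene IDs, and the 6 libraries were 6 of 9 in the series. The other 3 libraries came from untreated wild-type cultures (WT_CTR). They entered the fit to share its estimate of the spread, and their levels stand beside some of the results. Each culture began with non-adherent marrow cells that, after a night in M-CSF at 5 ng/ml, were kept in M-CSF (macrophage colony-stimulating factor) at 20 ng/ml together with RANKL (the ligand of the receptor RANK) at 10 ng/ml. 4-OI was given at 50 µM on day 1, and RNA was taken on day 3, when the cultures are described as fully differentiated. Both groups carry the Acod1 knockout label, and no wild-type culture with 4-OI was analysed here. The labels give neither the deleted exons nor the number of mice or cultures behind each group. The p-values therefore rest on library-to-library spread, and how much of that spread is technical is not known.

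Osteoclasts are large cells with several nuclei that form when marrow precursors of the monocyte line fuse under M-CSF and RANKL. RANKL acts through NF-kB and AP-1 factors to raise NFATc1, which switches on the genes for attachment to bone, acid secretion and collagen digestion, and the mature cell is rich in mitochondria. Itaconate and 4-OI can modify cysteines of proteins, among them KEAP1, which otherwise sends the transcription factor NRF2 to the proteasome, and 4-OI is widely used to raise NRF2 targets and to dampen interferon responses in macrophages.

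The 6 libraries held 24830149 to 28675699 counted reads, and levels are given as CPM, counts scaled to a common library size with TMM adjustment. Acod1 itself was listed at 4.95, 6.27 and 4.96 CPM in the KO_4OI libraries, 1.98, 3.6 and 1.7 in the KO_CTR libraries and 0.927, 0.889 and 1.57 in the WT_CTR libraries. It was therefore no lower in the libraries labelled as knockout than in the wild type, and it was higher in KO_4OI than in KO_CTR without overlap (log2 fold change 1.16, SE 0.3, edgeR adjusted p = 0.0103). Without KO_CTR replicate 1 its adjusted p was 0.0531. Where in the gene these reads lie is not recorded in a table of totals by gene, so the level does not check the genotype label. Xist, expressed from an inactive X chromosome, had reads in KO_4OI replicate 3 (8764) and WT_CTR replicate 2 (10715), and was at 0 in the other 7 libraries. KO_4OI and WT_CTR therefore mixed libraries with and without Xist reads, so the libraries within each did not all come from the same cells. No KO_CTR library had such reads. On a principal component analysis the 3 KO_4OI libraries lay at 55 to 67.5 on the axis with 54.6% of the variance, and the 6 untreated libraries at -41 to -23.7. KO_CTR replicate 2 stood apart on the axis with 19.2%, at -57.1. The osteoclast label was met by the markers in both groups. All 12 osteoclast markers were present in every library, and all 12 were lower in KO_4OI, from Csf1r, the M-CSF receptor gene (-0.54 on the log2 scale), to Calcr, the calcitonin receptor gene (-2.4). Csf1r lost its call without KO_CTR replicate 2, KO_4OI replicate 1 or KO_4OI replicate 2 (adjusted p by edgeR of 0.0717 to 0.0977). Acp5, which encodes the tartrate-resistant phosphatase used to stain osteoclasts, was still at 3007, 2946 and 3337 CPM in the KO_4OI libraries, against 7680, 10802 and 8595 in KO_CTR. In bulk RNA, fewer cells of a type and less RNA per cell cannot be told apart.

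A gene was called where the quasi-likelihood test of edgeR gave p below 0.05 after Benjamini-Hochberg adjustment over the 14264 genes, and "rose" and "fell" are used for such genes only. Values in parentheses after a gene are log2 fold changes of KO_4OI over KO_CTR unless a unit is given. Where the values of all 6 libraries are written out, the KO_4OI and KO_CTR libraries did not overlap. 3887 genes were called (27.3% of those tested), 1856 as higher (13.0%) and 2031 as lower (14.2%), so that a list with about 27.3% of its members called has the share of the table as a whole. The median log2 fold change was 0.94 over the called genes that rose, -0.98 over those that fell and 0.02 over all genes. The tails were uneven. At least 4-fold changes were about as frequent upwards (272) as downwards (249), but 52 genes rose by at least 16-fold and 22 fell by as much, and 27 against 5 passed 32-fold. The 3 and 3 libraries did not overlap for 1824 of the called genes that rose and for 1967 of those that fell. Over all genes tested, called or not, they did not overlap for 5608 (39.3%).

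**Figure D1:**
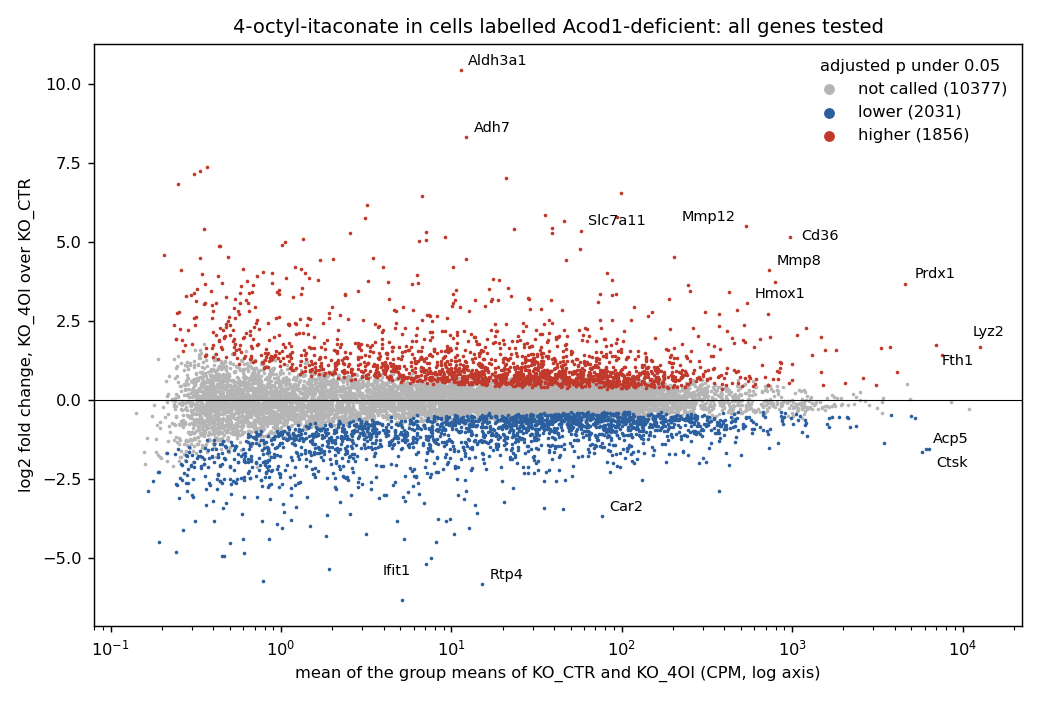
Each point is a gene tested, with the mean of the group means of KO_CTR and KO_4OI in CPM on a log axis against the log2 fold change of KO_4OI over KO_CTR, red for the 1856 genes called higher, blue for the 2031 called lower and grey for the others. Named genes mark both tails, from Aldh3a1 at the top to Rtp4 at the bottom, and abundant genes such as Lyz2, Prdx1, Ctsk and Acp5 lie at the right.

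A few very abundant genes held a sizeable share of the shift in reads. Summed over genes that were higher, the means of KO_4OI exceeded those of KO_CTR by 183833 CPM, of which the 10 genes with the largest gain held 27.6%. The largest gain was that of Lyz2, which encodes the lysozyme of macrophages and their precursors. It was at 17153, 23356 and 17487 CPM in the KO_4OI libraries against 5069, 7164 and 5957 in the KO_CTR libraries, with no overlap (log2 fold change 1.67, SE 0.17). Next came Prdx1, the ferritin genes Fth1 and Ftl1, Lpl (lipoprotein lipase, 5688 ± 448 against 1792 ± 517 CPM; SD, n = 3) and Gpnmb, a membrane glycoprotein of lysosomes (4998 ± 739.9 against 1612 ± 549 CPM). The losses summed to 158532 CPM, and the 10 largest held 19.4% of them. They were led by the bone-resorption genes Ctsk, Acp5 and Mmp9, the creatine kinase gene Ckb (1943 ± 345 against 4948 ± 882 CPM) and the mitochondrial genes mt-Co1 (not called) and mt-Cytb, followed by the intermediate filament gene Vim (4078 ± 243 against 5840 ± 174 CPM).

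The antioxidant genes under NRF2 had the highest share of rises among the lists described here. Of 32 NRF2 targets 31 rose (median log2 fold change 2.07), and their summed level was 47220 to 54986 CPM in the KO_4OI libraries and 12698 to 16039 CPM in the KO_CTR libraries. The exception was the glutathione transferase gene Gstp1 (0.31, not called). Among the regulators, Nfe2l2, which encodes NRF2, was at 174, 182 and 154 CPM in the KO_4OI libraries against 109, 91.2 and 111 in the KO_CTR libraries and rose by 0.71 on the log2 scale. Keap1, its inhibitor, did not pass (0.47, edgeR adjusted p = 0.0654). The small MAF partner gene Mafg rose (0.98) while its relative Maff fell (-1.5). Bach1, which encodes a repressor that competes with NRF2 for DNA, rose (0.82), and so did the NRF2 target Osgin1 (2.44) and Sqstm1 (0.68), which encodes the autophagy receptor p62 that binds KEAP1.

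NRF2 binds a short element, TGACNNNGC, in the control regions of its targets. The promoters of 5 targets are shown, those with the largest changes among called targets with a match far enough before the start to print its surroundings. Being chosen by the size of the response, they do not show how the element goes with that size. The bases are from RefSeq promoters (build GRCm38.p6; 250 bases before to 50 after a start), the capitals mark the match, and where it lies on the opposite strand they read as its reverse complement.
Gsta3, chr1:21240439-21240497, plus strand: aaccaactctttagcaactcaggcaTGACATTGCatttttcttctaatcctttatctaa
Gclm, chr3:122245398-122245456, plus strand: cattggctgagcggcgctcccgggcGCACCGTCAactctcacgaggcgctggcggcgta
Prdx1, chr4:116685441-116685499, plus strand: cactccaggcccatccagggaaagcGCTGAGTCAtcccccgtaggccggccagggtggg
Mgst1, chr6:138140446-138140504, plus strand: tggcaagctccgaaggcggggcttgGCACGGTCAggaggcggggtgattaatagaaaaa
Txnrd1, chr10:82859089-82859147, plus strand: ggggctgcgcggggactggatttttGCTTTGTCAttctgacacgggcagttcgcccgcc
The log2 fold changes of the 5 genes were 6.55, 3.74, 3.67, 3.36 and 1.93, in the order shown. The element was present in 28.6% of 35 promoters of NRF2 targets, against 14.5% of the 13162 promoters of all genes tested with an entry (10352 of 14260 symbols matched). Among promoters of genes that rose by at least 4-fold the share was 16.8%, and among those of genes that fell by at least 4-fold 13.9%. In other lists it was 26.9% of 26 promoters of lysosomal genes, 20% of 20 of cholesterol synthesis, 19.4% of 31 of interferon-stimulated genes and 7.69% of 26 of osteoclast function, and no difference between lists was tested. A match is a description of these letters in this window only, searched on both strands.

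Of 13 genes of cystine uptake and glutathione synthesis 10 rose and 1 fell. Slc7a11, the cystine transporter gene, was at 112, 139.7 and 86.3 CPM in the KO_4OI libraries against 2.65, 2.34 and 3.25 in the KO_CTR libraries. Gclc, the catalytic subunit of the enzyme for the rate-limiting step, was at 349, 369 and 301 CPM in the KO_4OI libraries against 41.9, 25.9 and 42.9 in the KO_CTR libraries, and Gss, for the last step, rose by 1.56 on the log2 scale. Gsr, which encodes the reductase that regenerates glutathione, was at 818, 759 and 847 CPM in the KO_4OI libraries against 232, 212 and 211 in the KO_CTR libraries, again without overlap between the groups. Slc1a5, a glutamine transporter gene, was the member that fell (-1.1). The step that adds glutathione to foreign molecules did not move as a block. Of 19 glutathione transferase genes 8 rose and 4 fell (median 0.31). The alpha, mu and microsomal classes held the larger increases, with Gsta3 (6.55), Mgst1 (3.36), Gstm2 (2.94), Mgst2 (2.53) and Gstm1 (2.29). The 3 theta-class genes that passed the filter all fell. Gstt1 was at 6.13, 5.64 and 5.26 CPM in the KO_4OI libraries against 29.5, 37.1 and 34.6 in the KO_CTR libraries (log2 fold change -2.57, SE 0.18, edgeR adjusted p = 5.17e-07), and Gstt2 and Gstt3 had log2 fold changes of -1.39 and -1.02. These genes have close paralogs, among which reads may be split, so their values are less certain.

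In the peroxiredoxin and thioredoxin system 9 of 19 genes rose. Srxn1, which encodes the sulfiredoxin that repairs oxidized peroxiredoxins, was at 615, 636 and 696 CPM in the KO_4OI libraries against 98.7, 103 and 91.5 in the KO_CTR libraries, and Txnrd1, the cytosolic thioredoxin reductase gene, at 1048, 829 and 1214 CPM in the KO_4OI libraries against 288, 282 and 239.6 in the KO_CTR libraries. The cytosolic members Prdx1 (3.67) and Prdx6 (0.93) rose. Txn2, the mitochondrial thioredoxin gene, did not pass (-0.39). 4 members of the list fell, led by Txnip, which encodes an inhibitor of thioredoxin (-0.82). That count was 1 without KO_4OI replicate 1 or replicate 2, and 2 without WT_CTR replicate 1, WT_CTR replicate 2 or KO_CTR replicate 2. Catalase was among the clearest increases of the oxidant enzymes. Cat was at 841, 927 and 855 CPM in the KO_4OI libraries against 170.3, 166 and 174 in the KO_CTR libraries (log2 fold change 2.36, SE 0.12). The NADPH oxidase split, with Cybb (1.4) and Ncf1 (0.79) higher and Rac2 (-0.98) and Ncf4 (-0.93) lower. Sod2, the mitochondrial superoxide dismutase gene, fell (-0.6) and its cytosolic relative Sod1 did not pass (0.35).

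Of 27 genes for the detoxification of quinones, aldehydes and carbonyls 18 rose and 2 fell (1 fell without any of WT_CTR replicates 1 and 2, KO_CTR replicate 2 and KO_4OI replicates 1 and 2, each left out alone). Cbr3, a carbonyl reductase gene, was at 155, 159.6 and 173 CPM in the KO_4OI libraries against 9.19, 15.5 and 10.6 in the KO_CTR libraries, and Ptgr1, which encodes a reductase of prostaglandins and leukotriene B4, at 415, 488 and 454 CPM in the KO_4OI libraries against 31.3, 34.8 and 42.5 in the KO_CTR libraries. Esd, the esterase D gene, was abundant in KO_CTR and rose further, to 1907, 1910 and 1875 CPM from 675, 629.6 and 802. Ephx1, the microsomal epoxide hydrolase gene, rose (2.53), while Ephx2, which encodes the soluble epoxide hydrolase of fatty acid epoxides, fell (-1.11). Akr1b8, an aldo-keto reductase gene, was at 644, 677 and 705 CPM in the KO_4OI libraries against 145, 128 and 175 in the KO_CTR libraries, and the glucuronosyltransferase genes Ugt1a6a (1.68) and Ugt1a7c (1.56), which share exons, rose as well. Of 10 ABC efflux transporter genes 6 rose, with Abcc1 at 842, 842 and 787 CPM in KO_4OI from 260.4, 209.5 and 220.4 and Abcc3 (2.2). Of 13 genes of the pentose phosphate pathway and NADPH supply 7 rose and 0 fell. The dehydrogenase genes that make NADPH, Me1 (3.23), G6pdx (1.8), Pgd (1.59) and Idh1 (1.38), held 4 of the 5 largest rises, and the other was the transaldolase gene Taldo1, at 2593, 2762 and 2804 CPM in the KO_4OI libraries against 803, 1002 and 919.7 in the KO_CTR libraries.

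Heme and iron genes moved in both directions (8 of 20 rose and 4 fell). Heme oxygenase 1, which opens the heme ring and frees its iron, is encoded by Hmox1, at 918, 1001 and 1004 CPM in the KO_4OI libraries against 106, 150.2 and 96.9 in the KO_CTR libraries. Blvrb (1.96), the ferritin chains Fth1 (1.74) and Ftl1 (1.42), the iron exporter gene Slc40a1 (2.42) and Slc48a1, which encodes a heme transporter (1.76), rose with it. The iron transporter of phagosomes, Slc11a1, was at 526, 492 and 597 CPM in the KO_4OI libraries against 71.9, 104 and 60.0 in the KO_CTR libraries. Its relative Slc11a2, the transporter of the transferrin cycle, fell (-0.85), as did the ferrireductase gene Steap4 (-2.27), and Tfrc, the transferrin receptor gene, was at -0.64 and did not pass. The members that fell numbered 2 without KO_4OI replicate 1, KO_CTR replicate 1 or KO_CTR replicate 3.

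Other stress programmes had calls in part of their members. Of 28 genes of the integrated stress response 8 rose and 4 fell. Atf3 was at 161, 163 and 179.9 CPM in the KO_4OI libraries against 29.9, 55.4 and 26.4 in the KO_CTR libraries, and Gdf15 (1.7), Trib3 (1.49), Cebpb (1.29) and Atf5 (1.14) rose as well. Ddit3 (CHOP, -0.04), Asns (0.1) and Sesn2 (-0.01), targets of ATF4, did not pass, nor did Atf4 (0.24), and Ppp1r15a, which encodes the phosphatase subunit GADD34, fell (-1.32). Among 21 cytosolic heat shock genes 3 rose, Dnajb4 (2.22), Hsph1 (1.31) and Ahsa1 (0.53), and 5 without KO_CTR replicate 3. Hspe1 fell (-0.5) and 17 were not called, so the share of rises was near the 13.0% of all genes tested. Hspa1a and Hspa1b, the inducible Hsp70 genes, were at 0.26 and -0.12 and did not pass. Of 18 endoplasmic reticulum chaperone genes 8 rose, none by as much as 2-fold, and Herpud1 fell (-0.62). The rises numbered 3 without KO_4OI replicate 1, 4 without KO_CTR replicate 1 and 5 without KO_CTR replicate 2 or KO_4OI replicate 2. Hspe1 and Herpud1 lost the call without KO_4OI replicate 1.

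**Figure D2:**
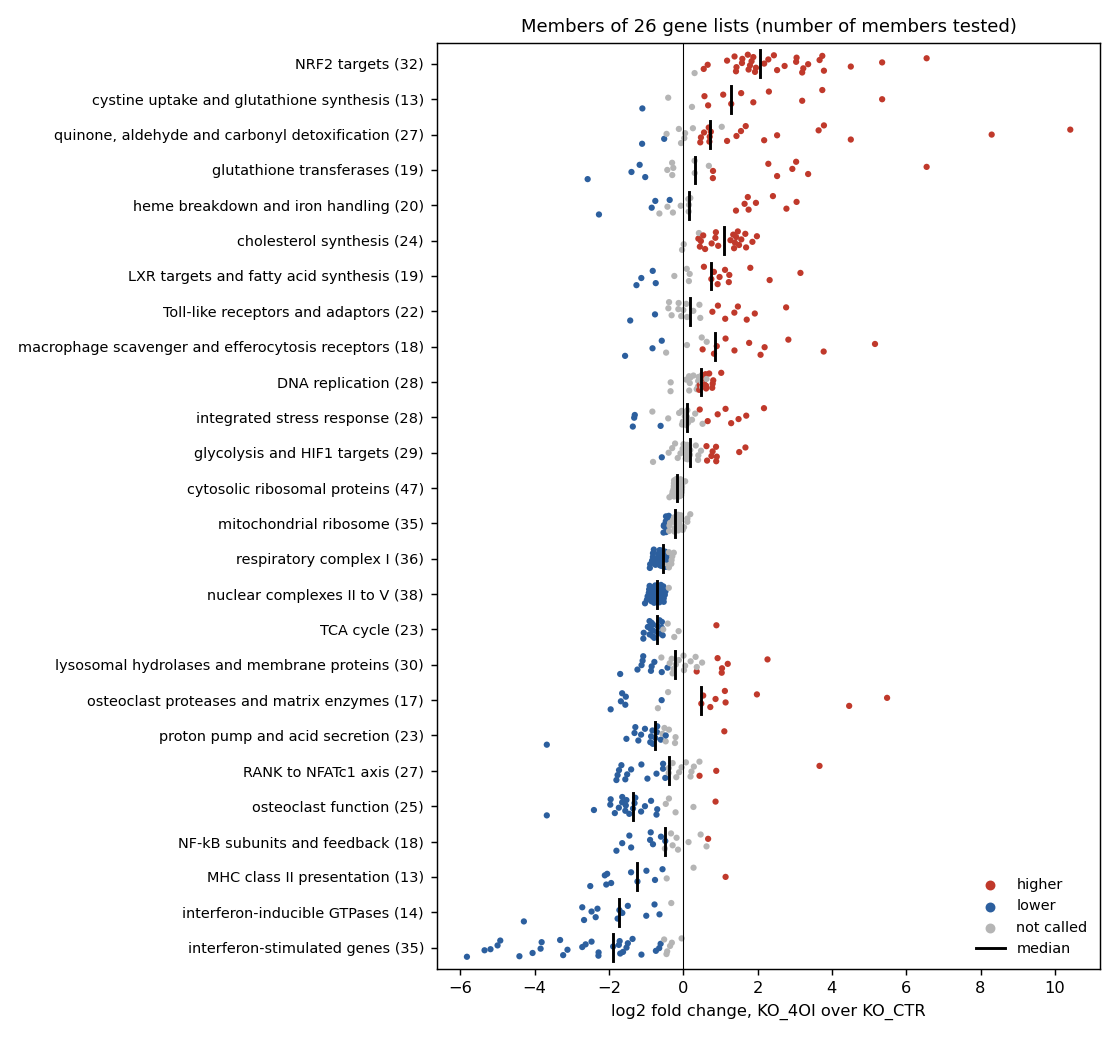
Each point is a gene of the list named at the left, placed by its log2 fold change of KO_4OI over KO_CTR, and coloured red (called higher), blue (called lower) or grey (not called). Black bars mark list medians, from 2.07 for NRF2 targets to -1.88 for interferon-stimulated genes, and the 47 ribosomal protein genes lie close to 0.

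The lists of the osteoclast programme differed. Medians were lowest for osteoclast function (-1.35) and for the factors that signal to osteoblasts (-1.16). Those of proteases and matrix enzymes (0.49), precursor fusion (0.16) and costimulation (0.05) were above 0. Of 25 osteoclast function genes 20 fell and 1 rose (median log2 fold change -1.35), and their summed level was 13765 to 17527 CPM in the KO_4OI libraries and 38043 to 46327 CPM in the KO_CTR libraries. At the receptors, Tnfrsf11a (RANK) fell to 126, 94 and 142 from 227, 183 and 186 CPM. Csf1r fell less, to 1320, 1367 and 1494 from 1799, 2599 and 1683 CPM. Mst1r, a receptor tyrosine kinase gene, fell by more (log2 fold change -2.0, SE 0.18).

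Of 27 genes of the RANK to NFATc1 axis 13 fell and 3 rose. Nfatc1 was at 177, 122 and 207 CPM in the KO_4OI libraries against 460.2, 615 and 365 in the KO_CTR libraries (log2 fold change -1.51, SE 0.21, edgeR adjusted p = 1.50e-04). The alternative NF-kB genes Relb (-1.8) and Nfkb2 (-1.4) fell, and the classical subunit gene Rela did not pass (-0.28). Of the AP-1 genes, Junb fell (-1.12), while Fos (-0.19) and Jun (0.29) did not pass. Fosl1 was at 10.6, 5.53 and 16.4 CPM in the KO_4OI libraries against 1.16, 0.712 and 0.651 in the KO_CTR libraries, the only member with a large increase. Rcan1, a target of NFATc1 that inhibits calcineurin, fell to 34.8, 29.5 and 42 from 103, 91.2 and 88.9 CPM. Traf6, the adaptor of RANK, did not pass (-0.39), nor did Mitf (-0.04). The ITAM signalling chains were also not called, Tyrobp at -0.29 and Fcer1g at -0.02, whereas the Tyrobp partner Trem2 rose (564 ± 52.3 against 185 ± 44.9 CPM). Of 14 genes listed as brakes on osteoclast formation 6 rose and 3 fell. Rbpj (1.24), Lilrb4a (1.4), Irf8 (0.94) and Id1 (1.94) rose. Cebpa, whose place as a brake is not settled, rose too (290.1 ± 39.9 against 115 ± 43.9 CPM). The ubiquitin-editing enzyme gene Tnfaip3 fell, to 21.1, 19.7 and 20.6 from 55.2, 56.9 and 55.3 CPM. Zfp36l1 (-2.21) and Irf4 (-1.14) also fell.

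Of 12 precursor fusion genes 5 fell and 4 rose. Ocstamp, which encodes a membrane protein needed for fusion, was at 118, 87.4 and 126 CPM in the KO_4OI libraries against 340.5, 399 and 296 in the KO_CTR libraries, and Dcstamp at 159, 139.7 and 168 CPM in the KO_4OI libraries against 297, 215 and 338 in the KO_CTR libraries. The tetraspanin gene Cd81 was at 220.0, 264 and 255 CPM in the KO_4OI libraries against 35, 42.1 and 39.1 in the KO_CTR libraries, a rise of 2.67 on the log2 scale, and Cdh1, the E-cadherin gene, rose from low levels (5.12 ± 1.51 against 1.79 ± 0.312 CPM). Cd9 (0.28), Cd44 (0.22) and Cd47 (0.1) did not pass. Among 29 adhesion and sealing zone genes 10 fell and 4 rose. Src, the kinase without which osteoclasts form no ruffled border, was at 75.3, 53 and 94.9 CPM in the KO_4OI libraries against 276, 372 and 221 in the KO_CTR libraries. Itga2 fell to 2.24, 3.36 and 1.63 from 21.2, 13.1 and 24.1 CPM, and the filopodial myosin gene Myo10 fell to 55.8, 41.6 and 64.2 from 186, 180.1 and 156 CPM. Against these, the leukocyte integrin genes Itgam (0.95) and Itgb2 (0.89) rose, as did the focal adhesion kinase gene Ptk2, to 24.2, 21.5 and 20.1 from 7.74, 5.27 and 6.04 CPM. Actb (0.04) and Rac1 (0.09) did not pass.

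Of 23 genes for the proton pump and acid secretion 16 fell, 1 rose and 6 were not called (median -0.75). Tcirg1, which encodes the a3 subunit that takes the pump to the ruffled border, was at 758, 665 and 884 CPM in the KO_4OI libraries against 1572, 2126 and 1357 in the KO_CTR libraries. Atp6v0a1, the a1 subunit gene, was the member that rose, at 89.5, 83.1 and 116 CPM in the KO_4OI libraries against 38.7, 63.6 and 31.9 in the KO_CTR libraries (log2 fold change 1.11, SE 0.25, edgeR adjusted p = 0.00487). For the d subunit, the osteoclast form Atp6v0d2 fell (-1.53) and the general form Atp6v0d1 did not pass (-0.22). Clcn7 (-1.31), the chloride exchanger gene of the ruffled border, and Slc4a2 (-1.29), the bicarbonate exchanger gene, fell, whereas Ostm1, the partner of Clcn7, did not pass (-0.21).

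The proteases moved in opposite directions. Of 17 protease and matrix enzyme genes 9 rose and 6 fell. Ctsk, the main collagenase of the osteoclast, fell without overlap, and Ctsl was at 2201, 2475 and 2431 CPM in the KO_4OI libraries against 562, 532 and 703 in the KO_CTR libraries (log2 fold change 1.98, SE 0.14). Ctss was at 1221, 1685 and 1215 CPM in the KO_4OI libraries against 554, 673 and 641 in the KO_CTR libraries, and Ctsb (0.49) and Ctsd (0.54) rose too. The calls of Ctsb and Ctsd were lost without KO_CTR replicate 1 (adjusted p by edgeR of 0.0539 and 0.0999) or KO_4OI replicate 2 (0.0605 and 0.0694), and that of Ctsd also without KO_CTR replicate 3 (0.0789) or KO_4OI replicate 3 (0.0749). Cst3, the gene of the secreted cathepsin inhibitor cystatin C, fell (-0.58). Mmp9 was at 2723, 1896 and 3761 CPM in the KO_4OI libraries against 8212, 11688 and 6245 in the KO_CTR libraries and Mmp14, the membrane-bound collagenase gene, at 123, 92.4 and 171 CPM in the KO_4OI libraries against 489.8, 628 and 376 in the KO_CTR libraries. Other metalloproteinase genes went the opposite way. Mmp12, the macrophage elastase gene (chromosome 9, 7344381 to 7369499, plus strand of mm10), was at 956, 1244 and 964 CPM in the KO_4OI libraries against 21.9, 23.9 and 24.8 in the KO_CTR libraries. Mmp8, the neutrophil collagenase gene, was at 1312, 1851 and 999 CPM in the KO_4OI libraries against 78.9, 68.9 and 95.6 in the KO_CTR libraries (log2 fold change 4.1, SE 0.22, edgeR adjusted p = 4.18e-08). Mmp13, a collagenase gene, rose from 0.992, 0.879 and 1.27 CPM to 21.7, 28.8 and 19.3 CPM, and KO_4OI libraries were above KO_CTR libraries for all 3 genes. Of the tissue inhibitors, Timp2 fell (-1.68) and Timp3 did not pass (-0.68).

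**Figure D3:**
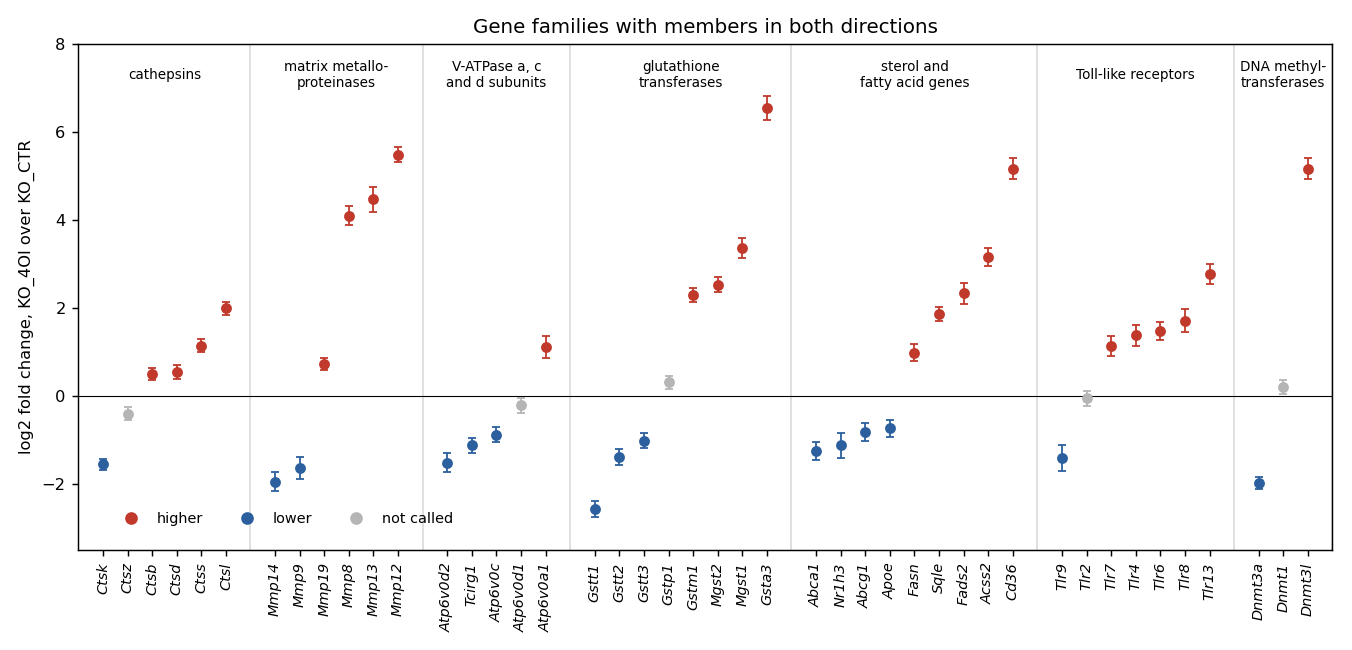
Points are log2 fold changes of KO_4OI over KO_CTR with their standard errors as bars, for 7 gene families set side by side and coloured by call. Each family holds members called in both directions, such as Ctsk (-1.56) and Ctsl (1.98), Gstt1 (-2.57) and Gsta3 (6.55), or Dnmt3a (-1.99) and Dnmt3l (5.16).

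Of 10 factors by which osteoclasts signal to osteoblasts 8 fell, with a median of -1.16. Cthrc1, which encodes a secreted collagen triple helix protein, was at 2.93, 3.62 and 4.24 CPM in the KO_4OI libraries against 18.6, 22.6 and 20.6 in the KO_CTR libraries. Pdgfb was at 81.6, 56.5 and 100.5 CPM in the KO_4OI libraries against 209, 291 and 169 in the KO_CTR libraries and Sema4d, which restrains osteoblasts, at 334, 268 and 385 CPM in the KO_4OI libraries against 598, 799.6 and 493 in the KO_CTR libraries. The groups did not overlap for any of the 3 genes.

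Markers of macrophages and monocytes moved in both directions, with 7 of 23 higher and 7 lower, and their summed level was 21257 to 28143 CPM in the KO_4OI libraries and 9393 to 12947 CPM in the KO_CTR libraries. Most of the sum is Lyz2. Adgre1 (0.9), which encodes F4/80, Vcan (1.34) and Marco (3.78) rose, and C1qa (-2.11), C1qc (-1.46) and Cx3cr1 (-1.0) fell. The part of a changed cell composition in the osteoclast genes was not tested.

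Interferon-stimulated genes had the lowest median of the lists described here. Of 35 genes 29 fell, with a median log2 fold change of -1.88. Ifit1 (chromosome 19, 34640871 to 34650009, plus strand of mm10), which encodes a protein that binds viral RNA ends, was at 0.477, 0.448 and 0.189 CPM in the KO_4OI libraries against 9.92, 17.8 and 13.5 in the KO_CTR libraries. Rtp4, the gene of a receptor transporter with antiviral activity, was at 0.477, 0.560 and 0.530 CPM in the KO_4OI libraries against 22.2, 34.9 and 32 in the KO_CTR libraries (log2 fold change -5.82, SE 0.25, edgeR adjusted p = 6.81e-09). For both genes every KO_4OI library was also below every untreated wild-type library, which lay at 2.16, 3.89 and 4.47 CPM for Ifit1 and 11.6, 12.4 and 13.7 CPM for Rtp4. Irf7, the interferon-induced transcription factor gene, was at 3.81, 3.77 and 4.09 CPM in the KO_4OI libraries against 24.7, 58.7 and 26.2 in the KO_CTR libraries, with KO_CTR replicate 2 well above the other untreated libraries. Of 21 genes of interferon receptors and JAK-STAT signalling 4 fell, Irf7 and Irf9 (-1.62) among them, 3 rose and 14 were not called. Those that rose were Stat4 (1.54), Irf5 (0.73) and Jak2 (0.53). That was 1 without KO_CTR replicate 3, where Irf5 and Jak2 lost the call (adjusted p by edgeR of 0.0594 and 0.0517), or without KO_4OI replicate 1, where Stat4 and Jak2 did (0.056 and 0.0991). Irf5 was also lost without KO_CTR replicate 1 or KO_4OI replicate 3 (0.0717 and 0.0537), and Jak2 without KO_CTR replicate 2 or KO_4OI replicate 2 (0.0968 and 0.0975). The receptor genes Ifnar1 (-0.01) and Ifnar2 (0.0) were not called, nor were Stat2 (-0.43, adjusted p = 0.0854 by edgeR) and Tyk2 (-0.22). Ifnb1 did not pass the filter on low counts. The 6 interferon-stimulated genes without a call were Ifih1, Ifi35, Stat2, Bst2, Trim30a and Eif2ak2, between -0.51 and -0.04.

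Promoters of the interferon-stimulated genes often held the interferon element GAAANNGAAA, and 4 are shown. They are those with the largest decreases among called members with a match far enough before the start to print its surroundings. The bases are again from RefSeq (GRCm38.p6). The capitals mark the match nearest the start, here read as its reverse complement. Ifit1, Ifit3 and Ifit3b each had 2 such matches, and the other one of Ifit1 lies in lower case within its stretch. The stretches of Ifit3 and Ifit3b are identical over their whole length.
Ifit1, chr19:34640779-34640838, plus strand: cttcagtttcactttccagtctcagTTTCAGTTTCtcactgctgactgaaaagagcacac
Ifit3, chr19:34583382-34583441, plus strand: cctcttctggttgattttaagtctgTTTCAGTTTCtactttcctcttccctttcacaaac
Ifit3b, chr19:34607778-34607837, plus strand: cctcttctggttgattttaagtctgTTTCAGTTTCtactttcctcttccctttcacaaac
Rsad2, chr12:26456538-26456597, minus strand: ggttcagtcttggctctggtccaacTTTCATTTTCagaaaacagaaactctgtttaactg
The log2 fold changes were -5.18, -4.99, -5.34 and -4.41. Ifit genes have close paralogs, and the shared promoter stretch shows how alike 2 of them are, so reads may be split or dropped between them. The element was found in 51.6% of 31 promoters of the list and in 3.21% of all 13162. By size of response it was present in 12.9% of 202 promoters of genes that fell by at least 4-fold, 4.55% of those that fell by 2-fold to 4-fold, 2.36% of those that fell by less and 3.05% of those not called. The share at 4-fold and beyond includes members of the interferon list. Both strands were searched, and a match says nothing on binding.

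**Figure D4:**
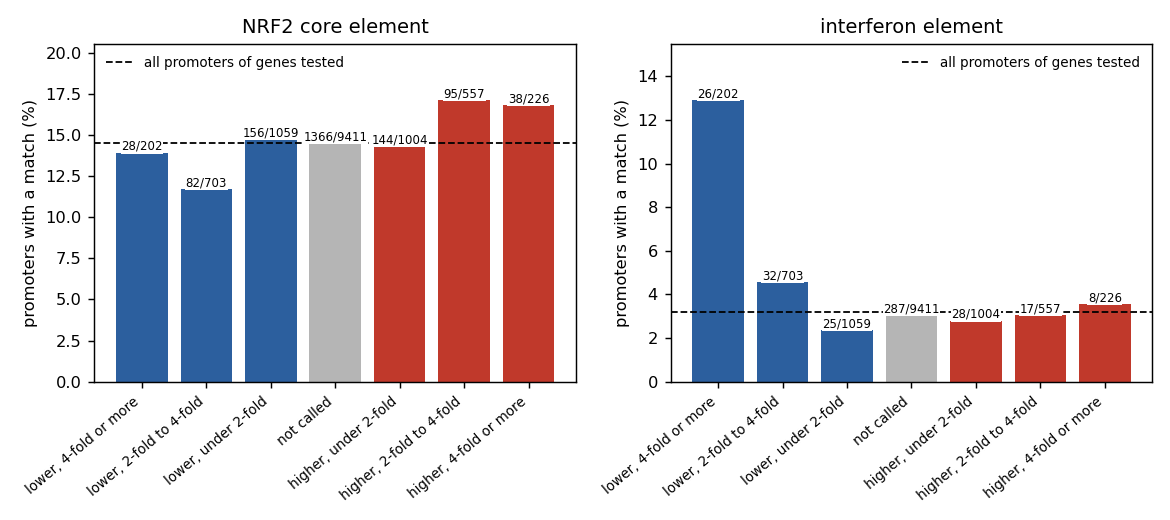
Bars give the percentage of promoters (250 bases before to 50 after a RefSeq start) with a match to the NRF2 core element (left) or the interferon element (right) for genes grouped by call and size of change, with the counts above each bar and the share of all promoters as a dashed line. The interferon element stands at 12.9% for genes that fell by at least 4-fold against 3.21% of all, while the NRF2 element lies between 11.7% and 17.1% in every class.

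Of 14 interferon-inducible GTPase genes 13 fell, among them Tgtp2 (0.175 ± 0.0878 against 3.48 ± 0.352 CPM), Mx1 (-2.72) and Gbp2 (-2.31). The guanylate-binding and Tgtp families have near-identical copies, and the values are uncertain to that extent. Of 18 nucleic acid sensor and adaptor genes 6 fell, 4 rose and 8 were not called. The cytosolic RNA sensor genes Ddx58 (-1.36) and Dhx58 (-1.71) and the DNA sensor genes Ifi204 (-1.55) and Ifi205 (-3.8) fell. Cgas, which encodes the cytosolic DNA sensor cGAS, rose (0.81). The endosomal RNA receptor genes Tlr7, Tlr8 and Tlr13 rose, with Tlr7 at 44.5, 65.6 and 31.2 CPM in the KO_4OI libraries against 23, 20.4 and 21.1 in the KO_CTR libraries and Tlr8 at 40.6, 66.1 and 27.9 CPM in the KO_4OI libraries against 14.6, 12.6 and 14 in the KO_CTR libraries, and Tlr13, a receptor for bacterial ribosomal RNA, at 249.5, 344 and 198 CPM in the KO_4OI libraries against 39.4, 28.4 and 48 in the KO_CTR libraries. Tlr9, the endosomal DNA receptor gene, fell (-1.43). In these 3 receptor genes KO_4OI replicate 2 was the highest library.

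Most MHC class II genes fell, and their regulator gene with them. Ciita, the master activator of class II genes, was at 2.27, 3.77 and 3.71 CPM in the KO_4OI libraries against 14.8, 27.6 and 12.9 in the KO_CTR libraries. Cd74, the invariant chain gene, was at 160.0, 154 and 184 CPM in the KO_4OI libraries against 548, 965 and 542 in the KO_CTR libraries, and H2-Ab1 at 35.8, 35.2 and 38.7 CPM in the KO_4OI libraries against 119, 222 and 133 in the KO_CTR libraries. Of 13 genes 10 fell, and Ctss, whose protease trims the invariant chain, was the member that rose. These genes are also marks of dendritic cells, and of 14 dendritic cell markers 8 fell and 3 rose, with Ccr7 (-2.16), Cd83 (-2.08) and Zbtb46 (-2.03) lower and Batf3 (1.49) and Irf8 (0.94) higher. Their summed level was 264 to 289 CPM in the KO_4OI libraries and 216 to 295 CPM in the KO_CTR libraries. Xcr1 (0.449 ± 0.201 against 0.504 ± 0.0965 CPM) and Clec9a (0.722 ± 0.0882 against 0.790 ± 0.113 CPM), markers of the cross-presenting subset, were near 0 in both groups. The part of dendritic cells in the fall of class II genes was not tested. Of 15 class I presentation genes 6 fell, and 1 rose, Erap1 (0.67), which kept the call without KO_CTR replicate 3 or KO_4OI replicate 3 and lost it without any 1 of the other 7 libraries (adjusted p by edgeR of 0.0541 to 0.157). Among those that fell were Tap1 (-1.4), Psmb9 (-1.0) and H2-T23 (-0.96), while the heavy chain genes H2-K1 (-0.12) and H2-D1 (0.06) did not pass. MHC genes are polymorphic and alike, which makes counts by gene less certain.

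**Figure D5:**
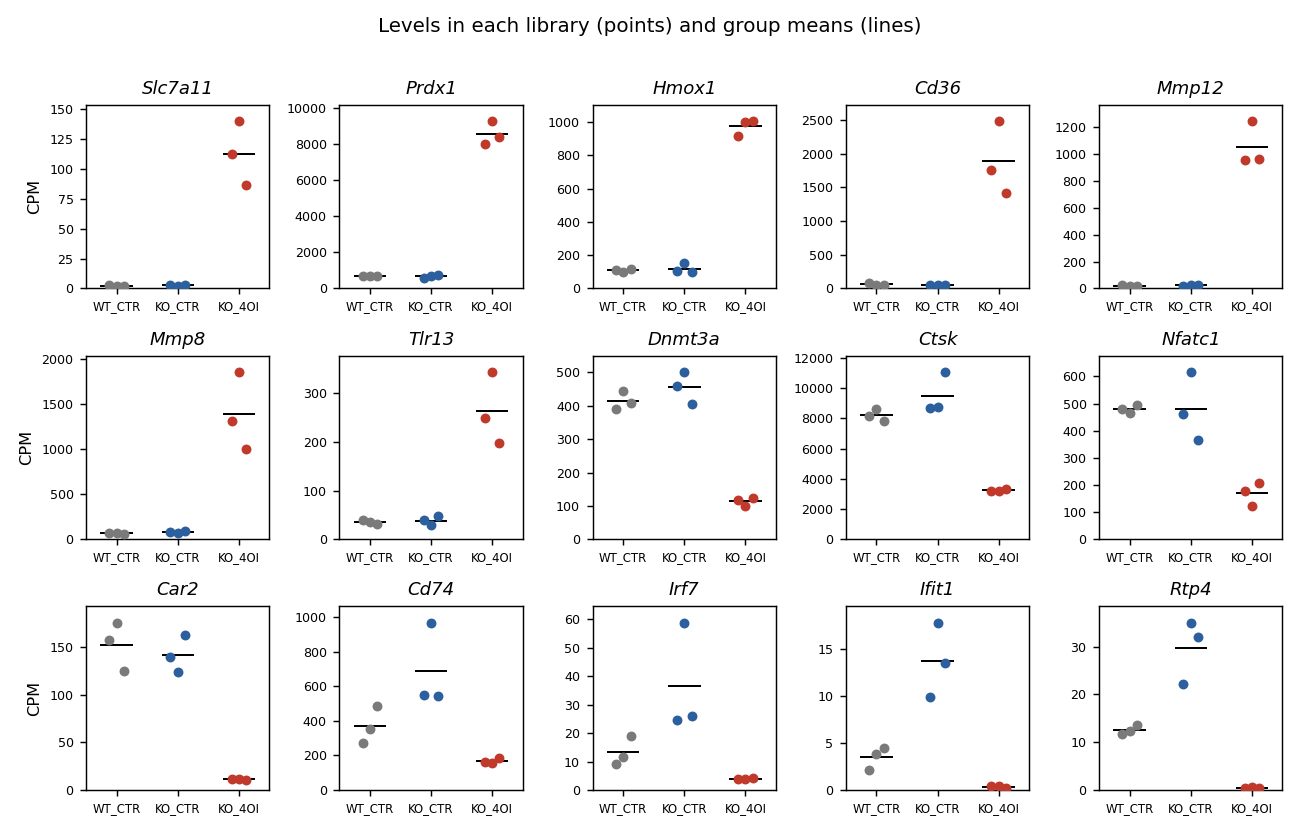
Points are the CPM of each library for 15 genes in WT_CTR (grey), KO_CTR (blue) and KO_4OI (red), each on its own linear axis from 0, and lines are group means. The genes were chosen with their values known, and for each the 3 KO_4OI libraries lie outside the range of the 3 KO_CTR libraries. KO_CTR replicate 2 is the highest library for Cd74, Irf7, Ifit1 and Rtp4, and the highest of the KO_CTR libraries for others such as Nfatc1 and Dnmt3a.

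Genes of cholesterol synthesis rose at most steps of the pathway. Of 24 genes 21 rose (median 1.11), and their summed level was 1795 to 1863 CPM in the KO_4OI libraries and 970.1 to 988 CPM in the KO_CTR libraries. Sqle, which encodes squalene epoxidase, was at 97.7, 94 and 104 CPM in the KO_4OI libraries against 31.2, 23 and 27.1 in the KO_CTR libraries. Srebf2, which encodes the transcription factor of the pathway and is controlled by cleavage of its protein, did not pass (0.02). The sterol element TCACNCCAC was found in 1 of 20 promoters of the list (5%) and in 1.14% of all, that of Hmgcs1, shown because it was the match of the list.
Hmgcs1, chr13:119690189-119690247, plus strand: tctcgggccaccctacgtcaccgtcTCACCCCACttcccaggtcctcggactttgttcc
Hmgcs1 rose by 0.94 on the log2 scale, and the absence of these letters from the other windows says nothing on its factor.

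Genes for cholesterol export moved the other way. The transporter genes Abca1 (-1.26) and Abcg1 (-0.82), the liver X receptor gene Nr1h3 (-1.13) and the carrier gene Apoe (-0.74) fell. Abca1 was at 12.5, 15.1 and 8.25 CPM in the KO_4OI libraries against 29.1, 28.9 and 27.7 in the KO_CTR libraries. Without KO_4OI replicate 1, Abcg1 and Apoe lost the call (edgeR adjusted p = 0.0516 and 0.0621). In the same list 11 of 19 genes rose, most of them genes of fatty acid synthesis and desaturation. Acss2, which makes acetyl-CoA from acetate, was at 61.7, 80.0 and 64.6 CPM in the KO_4OI libraries against 6.75, 8.75 and 7.7 in the KO_CTR libraries, and Fads2 (2.33), Elovl6 (1.81), Fads1 (1.24), Fasn (0.98) and Scd2 (0.93) rose. Mylip, a liver X receptor target that encodes a ubiquitin ligase, rose too (1.23). Of 24 genes of fatty acid uptake, storage and oxidation 7 rose, 4 fell and 13 were not called (median -0.13). The number that fell was 2 without KO_4OI replicate 1 and 7 without KO_CTR replicate 2. Cd36, a scavenger receptor and fatty acid transporter gene (chromosome 5, 17781690 to 17888801, minus strand of mm10), was at 1761, 2480 and 1423 CPM in the KO_4OI libraries against 55, 45.2 and 58 in the KO_CTR libraries (log2 fold change 5.16, SE 0.24, edgeR adjusted p = 1.07e-08). Plin2, which coats lipid droplets, was at 1146, 1190 and 1201 CPM in the KO_4OI libraries against 267, 326 and 298 in the KO_CTR libraries, and Angptl4 (3.17) and Fabp4 (2.7) rose, while Pparg did not pass (0.31). Cpt1a, the gate to mitochondrial fatty acid oxidation, rose (0.92), and Acaa2, an enzyme of the oxidation itself, fell (-0.86).

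Mitochondrial energy genes fell by moderate amounts. In the TCA cycle 18 of 23 genes fell, with a median of -0.71. Pdhb, of the pyruvate dehydrogenase, was at 195, 187 and 178 CPM in the KO_4OI libraries against 364, 362 and 444 in the KO_CTR libraries. Pcx, the pyruvate carboxylase gene, was the member that rose (0.89), and without the libraries that held Xist reads its adjusted p by edgeR was 0.0651. Of 38 nuclear genes of complexes II to V 37 fell, with Cyc1 of complex III at 232, 195 and 268 CPM in the KO_4OI libraries against 435, 575 and 406 in the KO_CTR libraries, and of 36 complex I genes 29 fell, 19 without KO_4OI replicate 1. Genes of the mitochondrial genome had a median of -0.46, and 5 of 13 fell. Their share of all reads was 2.14% to 2.56% in KO_4OI and 2.97% to 3.83% in KO_CTR. The protein synthesis of mitochondria was less clear, since 10 of 35 mitochondrial ribosome genes fell by edgeR and 0 without KO_4OI replicate 1. That count was 2 without KO_4OI replicate 2, and 5 or 6 without WT_CTR replicate 1, WT_CTR replicate 2, KO_CTR replicate 1 or KO_CTR replicate 3. The coactivator gene Ppargc1b was at 11.2, 8.06 and 12.6 CPM in the KO_4OI libraries against 31.9, 36 and 25.9 in the KO_CTR libraries, and its partner gene Esrra fell (-0.96). Tfam (-0.11), Nrf1 (0.2) and Gabpa (0.22), which act on mitochondrial DNA or nuclear mitochondrial genes, did not pass.

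As a contrast within the same libraries, 0 of 47 cytosolic ribosomal protein genes were called by edgeR, with 0 at an unadjusted p under 0.05 and 0 by DESeq2 or limma-trend, and their median was -0.17. Among 29 glycolysis and HIF1 genes 9 rose and 1 fell. The glucose transporter gene Slc2a1 was at 143, 118 and 175 CPM in the KO_4OI libraries against 53.6, 56.3 and 43.6 in the KO_CTR libraries, Pkm (0.88), Pgk1 (0.63) and Slc16a3 (0.9) rose, and Ldha did not pass (0.01). Egln3, a HIF1 target and prolyl hydroxylase gene, rose (1.68), and Pdk1 fell (-0.58).

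Of 13 genes for the synthesis and breakdown of itaconate 6 fell, and Acod1 rose. Clybl, whose product clears the citramalyl-CoA made from itaconate, fell (26.2 ± 1.94 against 49.5 ± 4.45 CPM), and Sugct, which encodes a CoA transferase able to use itaconate, fell from low levels (1.54 ± 0.461 against 3.69 ± 0.800 CPM). Of 14 dioxygenase and chromatin enzyme genes 1 rose (2 without KO_CTR replicate 2) and 3 fell, a share called near the 27.3% of all genes tested. Dnmt3a, the de novo DNA methyltransferase gene that osteoclast precursors need to mature, was at 118, 100.5 and 124 CPM in the KO_4OI libraries against 458, 500.5 and 406 in the KO_CTR libraries (log2 fold change -1.99, SE 0.14, edgeR adjusted p = 4.45e-07). Dnmt3l, which encodes a partner without catalytic activity best known from germ cells, was at 15.6, 17.9 and 19.7 CPM in the KO_4OI libraries against 0.364, 0.502 and 0.615 in the KO_CTR libraries. The groups were far apart for both, in opposite directions, and the maintenance enzyme gene Dnmt1 did not pass (0.2). Kdm6b, an H3K27 demethylase gene, fell (-1.18), and Tet2, whose product itaconate can inhibit, did not pass (-0.23), nor did Tet3 (-0.37).

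Of 30 lysosomal genes 6 rose, 10 fell and 14 were not called. Among hydrolases of glycosaminoglycans and glycolipids, Arsb (-1.7), Naglu (-1.12) and Glb1 (-1.08) fell. Gla, the alpha-galactosidase gene, rose by a small amount (0.36), and lost the call when any 1 of the 9 libraries was left out (adjusted p by edgeR of 0.0689 to 0.146). Arsb was at 105, 80.6 and 106 CPM in the KO_4OI libraries against 316, 360.4 and 268 in the KO_CTR libraries. Lipa, the lysosomal acid lipase gene, was at 1995, 2091 and 1936 CPM in the KO_4OI libraries against 410.1, 436 and 404 in the KO_CTR libraries, and the membrane protein genes Lamp1 (0.93), Lamp2 (1.05) and Scarb2 (1.2) rose. Npc2, which hands cholesterol to the exporter, fell (-0.87), and its partner Npc1 did not pass (0.01). The lysosomal gene element TCACGTGA was found in 11.5% of 26 promoters of the list and in 1.81% of all.

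Inflammatory genes moved in both directions. Of 18 NF-kB subunit and feedback genes 9 fell and 1 rose, with Bcl3 at 18, 18 and 22.3 CPM in the KO_4OI libraries against 52.6, 82.4 and 46.5 in the KO_CTR libraries and Nfkbia, which encodes the inhibitor IkB alpha, at 267, 265 and 302 CPM in the KO_4OI libraries against 437, 541 and 488 in the KO_CTR libraries. Chemokine genes controlled by interferon fell, Cxcl10 (-3.81) and Ccl5 (-2.3), along with Ccl22 (-2.05), while Cxcl3 rose from close to 0, 2.31, 1.79 and 3.37 CPM in the KO_4OI libraries against 0.0331, 0.293 and 0.108 in the KO_CTR libraries. Of 22 cytokine, prostaglandin and inflammasome genes 12 rose and 5 fell. The eicosanoid genes were among those that rose. Alox5ap, the activator of 5-lipoxygenase, was at 360.2, 412 and 363 CPM in the KO_4OI libraries against 103, 168 and 119 in the KO_CTR libraries, and Ptgs1 (1.66), Ptgs2 (2.95) and Ptges (1.41) rose. The inflammasome sensor genes Nlrc4 (1.45), Nlrp1b (1.47) and Nlrp3 (0.75) rose with their adaptor gene Pycard (0.62), and Casp4 (-1.47) and Gsdmd (-1.15) fell. Gsdmd, which encodes the pore protein gasdermin D, was at 141, 142 and 165 CPM in the KO_4OI libraries against 294, 379.6 and 319.6 in the KO_CTR libraries. Il1b fell from low levels (0.609 ± 0.122 against 2.37 ± 1.00 CPM) and Il10 rose from low levels (3.37 ± 0.585 against 1.05 ± 0.277 CPM).

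Further lists of signalling and protein turnover had called members in both directions, apart from the proteasome. Of 20 genes of costimulation and calcium signalling 4 fell and 4 rose. Of 18 chemokine ligand genes 6 fell and 5 rose, and Pf4, the platelet factor 4 gene, was at 82.8, 91.8 and 111 CPM in the KO_4OI libraries against 35.3, 61.9 and 41.1 in the KO_CTR libraries. Of 21 chemokine and growth factor receptor genes 5 fell (3 without KO_4OI replicate 1) and 4 rose. Tnfrsf1b, which encodes the second receptor of tumour necrosis factor, was at 486, 589 and 526 CPM in the KO_4OI libraries against 133, 245 and 114 in the KO_CTR libraries, and the groups were well apart. Among 13 genes of alternative macrophage activation 6 fell, 2 rose and 5 were not called. Those that rose were Il4ra (0.78) and Clec10a (0.76), and neither kept the call without KO_CTR replicate 1 (adjusted p by edgeR of 0.0773 and 0.14), KO_CTR replicate 3 (0.0629 and 0.11) or KO_4OI replicate 3 (0.0641 and 0.1). Clec10a was also lost without KO_4OI replicate 1 (0.0512) or KO_4OI replicate 2 (0.0664), and without KO_CTR replicate 2 the number that rose was 4. Socs2, a feedback inhibitor gene of cytokine receptors, was at 0.330, 0.187 and 0.227 CPM in the KO_4OI libraries against 1.49, 1.93 and 2.68 in the KO_CTR libraries. Of 31 genes of the constitutive proteasome 4 rose and 0 fell. That was 2 without WT_CTR replicate 2, KO_CTR replicate 1, KO_CTR replicate 2 or KO_4OI replicate 1. Their median was 0.25, and the share of rises was near the 13.0% of all genes tested.

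Of 22 genes of Toll-like and related receptors with their adaptors 8 rose, 2 fell and 12 were not called. Besides the endosomal receptors, Tlr4 (1.38), Tlr6 (1.47) and the beta-glucan receptor gene Clec7a (127 ± 45.8 against 33.3 ± 3.12 CPM) rose, and Tlr2 did not pass (-0.05). Of 18 scavenger and efferocytosis receptor genes 11 rose and 3 fell. Clec4d was at 801, 935 and 768 CPM in the KO_4OI libraries against 108, 121 and 122 in the KO_CTR libraries and Msr1, the class A scavenger receptor gene, at 333, 414 and 298 CPM in the KO_4OI libraries against 101, 89.2 and 115 in the KO_CTR libraries. Axl, a receptor for dying cells, fell to 6.9, 5.86 and 7.19 from 18.8, 26.1 and 14.1 CPM. Of 14 Fc gamma receptor and Ms4a family genes 4 rose (2 without KO_CTR replicate 1, KO_CTR replicate 3 or KO_4OI replicate 2) and 2 fell (1 without WT_CTR replicate 2, KO_CTR replicate 2 or any 1 KO_4OI library). The Fc receptor gene Fcgr3 rose (451 ± 73.9 against 110.0 ± 34.1 CPM), whereas Fcgr1 (-0.13) and Fcgr2b (-0.25) did not pass. In complement, the C1q genes fell, C1qa to 6.75, 10.2 and 12.6 from 28.9, 68 and 30.4 CPM with KO_CTR replicate 2 far above the other 2, and the anaphylatoxin receptor genes C3ar1 (0.82), C5ar1 (1.01) and C5ar2 (1.03) rose.

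Cell cycle genes leaned upwards, with a larger share of calls in DNA replication than in mitosis. Of 28 DNA replication genes 12 rose, and 5 without KO_4OI replicate 1. Their summed level was 2280 to 2599 CPM in the KO_4OI libraries, 1575 to 1865 in KO_CTR and 2293 to 2471 in WT_CTR. Pcna was at 458, 467 and 476 CPM in the KO_4OI libraries against 230.2, 196 and 263 in the KO_CTR libraries and the cyclin gene Ccne2 at 41.9, 41 and 35.3 CPM in the KO_4OI libraries against 24.9, 18.7 and 24.6 in the KO_CTR libraries. Of 24 mitosis genes 5 rose by edgeR's test. This count depended on single libraries, and was 1 without KO_4OI replicate 1, 2 without KO_4OI replicate 2 and 11 without KO_CTR replicate 3. The mitosis genes summed to 2325 to 2591 CPM in KO_4OI, 1400 to 2090 in KO_CTR and 2345 to 2620 in WT_CTR. Ccnd1, the cyclin D1 gene, was at 136, 87 and 168 CPM in the KO_4OI libraries against 65, 44.1 and 52.5 in the KO_CTR libraries, and the wild-type libraries lay at 139, 116 and 124 CPM, within the range of KO_4OI. Cdkn1a, the gene of the inhibitor p21, rose as well (0.8).

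Marrow cultures can hold other cells, whose markers were counted too. For B cells 0 of 11 markers were called by edgeR (1 at an unadjusted p under 0.05 and 0 by DESeq2, and 1 called without KO_CTR replicate 1), with a summed level of 119 to 143 CPM in the KO_4OI libraries and 104 to 146 CPM in the KO_CTR libraries. For erythroid cells 0 of 7 were called by edgeR and for mast cells and basophils 0 of 7 (0 at an unadjusted p under 0.05 and 0 by DESeq2 for each). Of the T and NK cell markers 4 passed the filter, and Trac (0.795 ± 0.0115 against 3.65 ± 0.218 CPM) and Cd4 (0.287 ± 0.159 against 2.02 ± 0.178 CPM) fell, with a summed level of 3.23 to 4.41 CPM in the KO_4OI libraries and 7.87 to 9.11 CPM in the KO_CTR libraries. The receptor genes Cd3d, Cd3e and Cd3g did not pass the filter, with 0 to 4 reads in each of the 6 libraries. Of 14 neutrophil markers 3 rose, Mmp8, Mpo (0.61) and Prtn3 (0.59), and their summed level was 2134 to 3243 CPM in the KO_4OI libraries and 973 to 1451 CPM in the KO_CTR libraries. The count was 1 without KO_CTR replicate 1, KO_CTR replicate 3, KO_4OI replicate 1 or KO_4OI replicate 3, where Mpo and Prtn3 lost the call (adjusted p by edgeR of 0.0614 to 0.11 and 0.0684 to 0.115), and 6 without KO_CTR replicate 2. The granule genes Ngp (-0.13), Camp (-0.18) and S100a8 (0.33) did not pass, and the 17.1-fold rise of Mmp8 was the only rise above 2-fold among the 14. The summed level of the mesenchymal and endothelial markers was 39.1 to 46.5 CPM in the KO_4OI libraries and 27.1 to 30.5 CPM in the KO_CTR libraries, and of 9 tested 1 rose, 2 fell and 6 were not called (median -0.38). Acta2, the smooth muscle actin gene, was the member that rose (17.7 ± 1.44 against 3.94 ± 1.14 CPM). Kdr, an endothelial receptor gene, fell (0.361 ± 0.0821 against 1.56 ± 0.278 CPM), as did Col3a1, a collagen gene (0.124 ± 0.0918 against 0.778 ± 0.737 CPM). Col3a1 lost the call without WT_CTR replicate 3, KO_CTR replicate 1 or any 1 KO_4OI library (adjusted p by edgeR of 0.0556 to 0.31), and without KO_CTR replicate 2 the markers that fell were 4 and those that rose 2. The part of these cells in the results was not tested.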

How the data were processed

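RNA from 9 mouse libraries was sequenced, and the deposited table holds whole-number read counts per gene, not normalized. Per the submitters' processing notes, reads were trimmed with fastp, aligned with STAR to mm10 and counted with HTSeq 0.6.1; of the trimming settings, strand setting and annotation release nothing is stated there, and genes overlapping on opposite strands may share reads. Of 54532 gene IDs, 54409 had a symbol. The other 123 (at most 0.0284% of a library's reads) went through the same filter on low counts and the same fits. Totals were 24830149 to 35143629 reads.

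The fit used R 4.3.3 and edgeR 4.0.16: filterByExpr with a minimum count of 10, TMM scaling, and the quasi-likelihood test over all 9 libraries with group as the only factor. Adjusted p-values are Benjamini-Hochberg over all genes tested, two-sided, with a threshold of 0.05, and a standard error is the size of the log2 fold change divided by the root of the F statistic. CPM values use the TMM factors and are given per library or as mean ± SD of 3. DESeq2 1.42.0 and limma-trend (limma 3.58.1, prior count 2), other scalings and filters, a replicate block and refits without single libraries served as alternatives. No separate set tests were run: lists are given as counts and medians beside all genes tested. Scripts were tested on simulated data.

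A rule set out genes to name, and not all of them are named in the text. It took Acod1 and genes with at most 3 reads in 1 group and at least 150 in the other. Each way, it took the 15 largest log2 fold changes and 10 largest differences of mean CPM. Those came from called genes with at least 5 CPM in the higher group and no overlap. From each list it took up to 6 members with the smallest p and called members against the list's majority. From genes in no list it took the 15 smallest p each way with at least 20 CPM. Other named genes are list members chosen after their values were seen. The comparison, its members and all lists were chosen with earlier results of these data known.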

Additional observations from a re-analysis of the deposited data

How the results depend on the processing

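The comparison was refitted under 20 other settings, and no named gene with a call turned its direction. Calls numbered 3887 in the reported fit and 679 when the test asked for a log2 fold change beyond 1, a stricter question by construction. Across the other alternatives the calls were 1285 to 2120 higher and 1459 to 2266 lower, and leaving out 1 library at a time gave 1283 to 1813 higher, 1407 to 2092 lower and 2690 to 3905 in all, with the fewest without KO_4OI replicate 1. The share of calls that were higher was 47.7%, and 41.8% with upper-quartile scaling, under which the median of all genes lay at -0.04 against 0.02. With a library left out, NRF2 targets that rose numbered 31 in each refit and those that fell 0, cholesterol synthesis genes 16 to 20 higher and 0 lower, osteoclast function genes 1 higher and 19 to 21 lower, interferon-stimulated genes 0 higher and 27 to 30 lower, and TCA cycle genes 1 higher and 17 to 19 lower. The TCA cycle gene that rose, Pcx, lost the call without the libraries that hold Xist reads, which left 0; the cause was not tested. Dendritic cell markers that fell numbered 5 there, against 8. With the replicate number as a replicate block the calls were 1457 higher and 1664 lower. The labels do not say whether libraries with the same number belong together. Such libraries deviated from their group means with correlations of 0.13, -0.36 and -0.41, and those with different numbers with -0.18 to 0.43. Deviations from a mean of 3 libraries depend on each other, so these values cannot decide whether the samples are paired. Of 450 named genes past the threshold, 374 kept the call in every setting that tests for any change, and 76 lost it in at least 1. At the depth of these libraries, genes under about 2 CPM have standard errors near 0.43 on the log2 scale, so a 2-fold change there can be missed.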

Other observations

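Several of the steepest rises were in genes that none of the lists held. Tarm1, which encodes a leukocyte receptor that pairs with the Fc receptor gamma chain, was at 169, 179.7 and 202 CPM in the KO_4OI libraries against 2.81, 3.18 and 3.94 in the KO_CTR libraries. Hal, the histidine ammonia-lyase gene, rose from 1.08 ± 0.233 to 45.7 ± 5.6 CPM (SD, n = 3), and Procr, the endothelial protein C receptor gene, from 1.98 ± 0.567 to 76.4 ± 6.91 CPM. The groups were separate in all 3 genes, as the rule that named them among the largest changes required. The untreated wild-type libraries lay near KO_CTR, at 4.15 ± 0.651, 1.21 ± 0.253 and 2.47 ± 0.681 CPM. Pla2g7, which encodes the phospholipase that breaks down platelet-activating factor, was the most abundant of these genes, at 1171, 1561 and 1016 CPM in the KO_4OI libraries against 181, 191 and 198 in the KO_CTR libraries. The protease inhibitor genes Serpinb9 (4.42 on the log2 scale), Serpinb9b (7.02) and Serpinb1b (5.32) rose together, with close paralogs among them. Other rises in genes outside the lists were those of Il1f9, an interleukin 1 family cytokine gene (4.77), Fabp7, a fatty acid-binding protein gene (4.03), Rnf128, a ubiquitin ligase gene (3.46), and Pir, the pirin gene (3.55).

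Among genes that fell outside the lists, Coq8a, which encodes a kinase-like protein needed for coenzyme Q synthesis in mitochondria, was at 88.9, 90.4 and 91.4 CPM in the KO_4OI libraries against 540.4, 868 and 565 in the KO_CTR libraries. Ldhb, the heart-type lactate dehydrogenase gene, was at 47.4, 55.5 and 57.7 CPM in the KO_4OI libraries against 174, 208 and 198 in the KO_CTR libraries, and Eno3, the muscle enolase gene, fell by 2.20 on the log2 scale. No library of KO_4OI reached the range of KO_CTR in these genes, which were named for their small p. Rasgrp1, which encodes an activator of Ras, fell from 15.5 ± 4.14 to 0.679 ± 0.430 CPM, and the sialyltransferase gene St8sia6 from 19.5 ± 2.58 to 1.03 ± 0.491 CPM. Rab38, a GTPase gene of lysosome-related organelles (-2.1), Rufy4 (-1.63) and Plekhf1 (-2.53) also fell.

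By annotation class, 28.6% of 12339 protein-coding genes were called, 31.4% of 376 lincRNA genes and 20.7% of 324 antisense genes, and of processed pseudogenes 7.51% of 506. By mean level, the share called was 20.5% in the 20% of genes with the lowest level, where the median standard error of the log2 fold change was 0.43, and 33.2% in the 20% with the highest, where it was 0.16.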
